A study of Homo sapiens with 2 samples.

Results

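The extracellular matrix genes described here comprised collagen and laminin chains, fibronectin and other matrix proteins, the enzymes that process them, and the matrix-directed proteases with their inhibitors. They were chosen by gene name, without use of any expression value, and 58 of the 11976 genes listed in both tables matched. By role they were 26 chains and matrix proteins, 10 processing enzymes and 20 proteases and inhibitors. The other 2, COL4A3BP and MMP24-AS1, matched by name alone: the first encodes a ceramide transfer protein, and the second is a transcript from the strand opposite MMP24.

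RNA-seq was performed on Huh7 cells, a long-established line from a human liver cancer (hepatocellular carcinoma). There was 1 library from cells with a control shRNA and 1 from cells with an shRNA that knocks down USP22, which removes ubiquitin from histones as part of the SAGA complex. The labels name no further treatment, and the sources used here give neither the time after the shRNA was introduced nor the shRNA sequence. Since each group has 1 library, there is no replicate error and no p-value, and "higher" or "lower" is said of this pair of libraries alone. Values were read as FPKM, a level per transcript length and sequencing depth, since the tables name no unit. Each log2 ratio is log2 of (USP22 shRNA + 1) over (control + 1). A gene was called higher or lower when this ratio was at least 1 in size, a 2-fold difference, at a mean of at least 1 FPKM over both libraries.

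Fibrillar collagens are secreted as procollagen trimers whose prolines and lysines are hydroxylated in the endoplasmic reticulum, and outside the cell they are trimmed and cross-linked by lysyl oxidases. Laminins are trimers of an alpha, a beta and a gamma chain and build the basement membrane. Matrix metalloproteinases (MMPs) and the ADAM and ADAMTS proteases cut matrix and cell surface proteins, and tissue inhibitors of metalloproteinases (TIMPs) restrain them. In liver, fibrillar collagen is known mainly as a product of activated stellate cells.

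USP22 itself was at 58.1 FPKM in control cells and 7.67 FPKM after USP22 knockdown, a log2 ratio of -2.77. All 10 hepatocyte markers examined were listed, and their summed level was 2427 FPKM in control cells and 1672 FPKM after USP22 knockdown. Of these, 5 (50%) were called lower (APOA1, TTR, SERPINA1, HNF4A and TF), against 12.2% of all genes kept. The other 5 were inside 2-fold, with ratios from -0.30 for ALB to 0.95 for APOB. Once GC content was allowed for, as described below, 4 (40%) were lower, against 8.92% of all genes. These were TTR, SERPINA1, TF and ALB (-1.40), while APOA1 (-0.38) and HNF4A (-0.85) were then inside 2-fold. Of 10 stellate cell and fibroblast markers outside the matrix genes, 4 were listed. ACTA2 was listed at 0 in both libraries, PDGFRA stood at 0.383 and 0.565 FPKM and PDGFRB at 1.68 and 1.31 FPKM. TAGLN, an actin-binding protein, was at 11.2 FPKM in control cells and 78.5 FPKM after USP22 knockdown, and it made up most of the list's summed level of 13.3 and 80.4 FPKM. The part of TAGLN-expressing cells in the collagen values below was not tested, and in a bulk library fewer cells of a type and less RNA per cell cannot be told apart. Of 7 blood markers 3 were listed, at a summed 392 and 94.8 FPKM, most of it from LYZ, and none of 7 endothelial markers was listed.

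Of the 58 genes, 44 reached a mean of 1 FPKM, and 16 of these (36.4%) were at least 2-fold higher after USP22 knockdown, against 24.1% of all 10195 genes kept. In the other direction 4 (9.09%) were at least 2-fold lower, against 12.2% of all genes. The median log2 ratio was 0.42 over the 44 genes and 0.10 over all genes kept. TMM scaling, which trims the extreme ratios and sets the mean of the rest to 0, shifted the scale by 0.24 (log2), which lowers the ratios of genes near the pseudocount by less. With it 16 of the 44 genes (36.4%) were higher, against 19.1% of all genes, and 7 (15.9%) were lower, against 17.2%. LAMA3, COL7A1, COL4A3BP and ADAMTS12 reached the filter while under 1 FPKM in the control, and MMP11 while under 1 FPKM after USP22 knockdown. Among the 39 genes with at least 1 FPKM in both libraries 13 (33.3%) were higher and 4 (10.3%) lower, where the shares of all such genes were 19.2% and 12.1%. The 14 genes under the filter ranged from 0.0177 FPKM, for COL12A1 in the control, to 1.14 FPKM, for MMP17 in the control. They included LAMA4, COL3A1, COL4A5, COL12A1, COL16A1, COL28A1, LOXL3, MMP16, MMP17, MMP23B, ADAM28, ADAMTS3 and ADAMTS9.

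**Figure D1:**
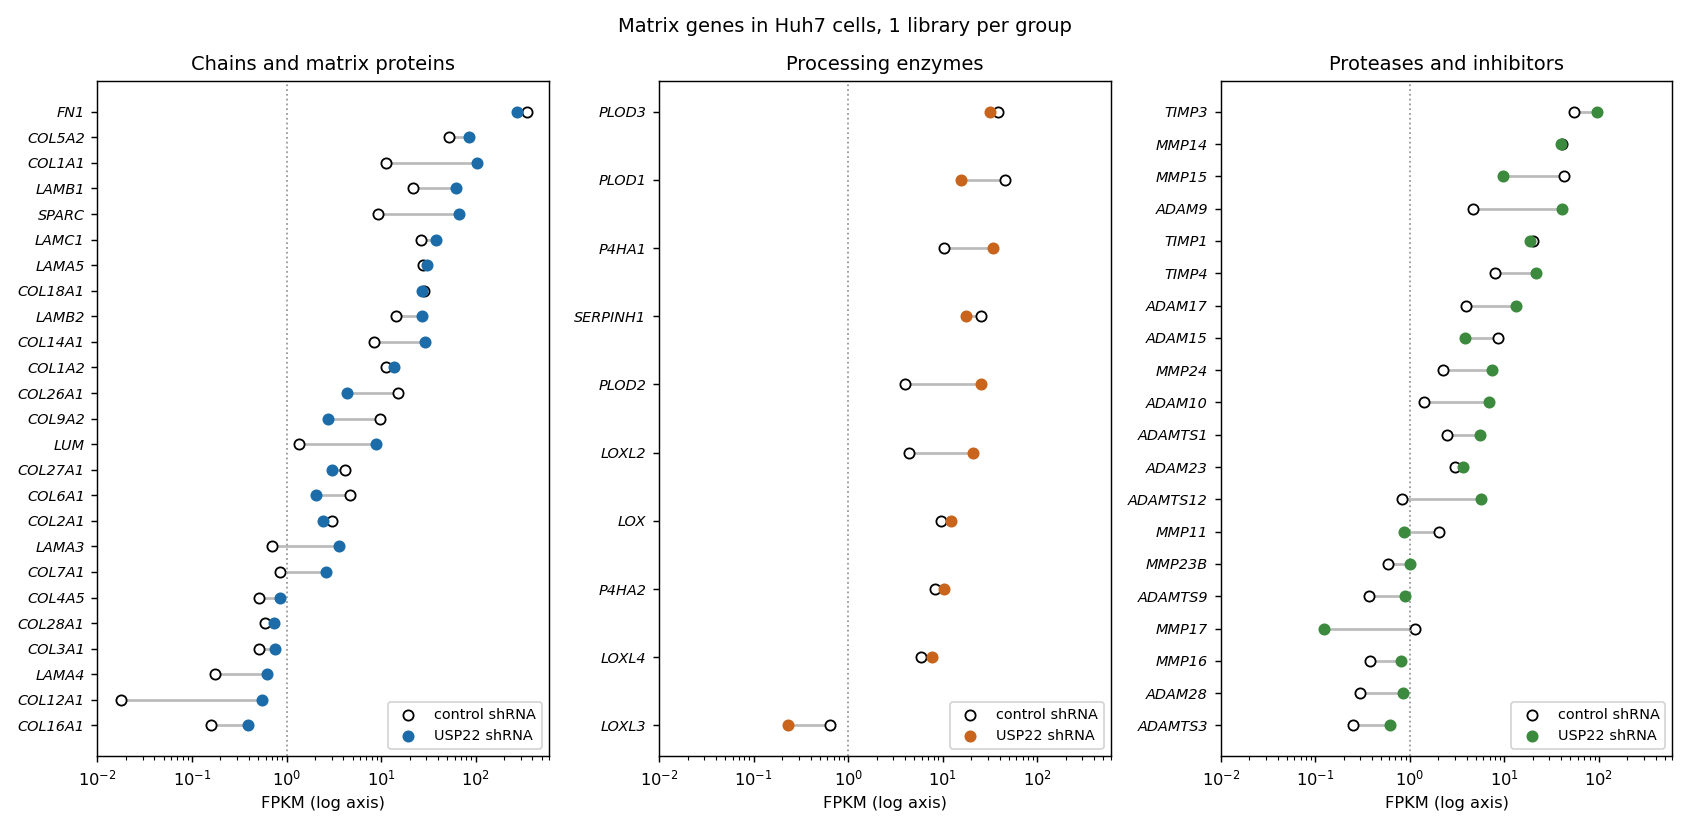
FPKM (log axis) of the matrix genes in the control (open circles) and USP22 shRNA library (filled circles), 1 library each, by role and ordered by mean level. The dotted line marks 1 FPKM. COL1A1, SPARC, PLOD2, LOXL2 and ADAM9 lie far to the right of their control values, while MMP15, PLOD1, COL26A1 and COL9A2 lie to the left.

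Across all genes the ratio falls as the GC content of the transcript increases, so each call was also made with that trend removed by a lowess curve over all genes. The matrix genes had a median GC content of 56.2%, above the 49.3% of all genes kept, and 11 of the 44 belonged to the highest of 10 equal groups of genes by GC content. With the trend removed, 13 of the 44 (29.5%) were at least 2-fold higher, against 8.45% of 10134 genes, and 1 (2.27%) was lower, against 8.92%. The median was then 0.53, against 0.0025 over all genes. Of the genes higher with the trend removed, LAMA3, COL7A1 and ADAMTS12 reached the filter while under 1 FPKM in the control. No count at 1 FPKM in both libraries was made with the trend removed. The genes called higher both ways were 11 in number: COL1A1, SPARC, COL14A1, LAMB1, LAMA3, LOXL2, PLOD2, ADAM9, ADAMTS12, MMP24 and TIMP4. MMP15 was the gene called lower both ways. P4HA1, LUM, ADAM10, ADAM17 and COL4A3BP, called higher as deposited, were then inside 2-fold, as were PLOD1, COL26A1 and COL9A2, called lower as deposited. LAMB2 and COL7A1 passed 2-fold on the higher side once the trend was removed. COL4A3BP was at 0.633 and 4.10 FPKM, a ratio of 1.64 that became 0.52.

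**Figure D2:**
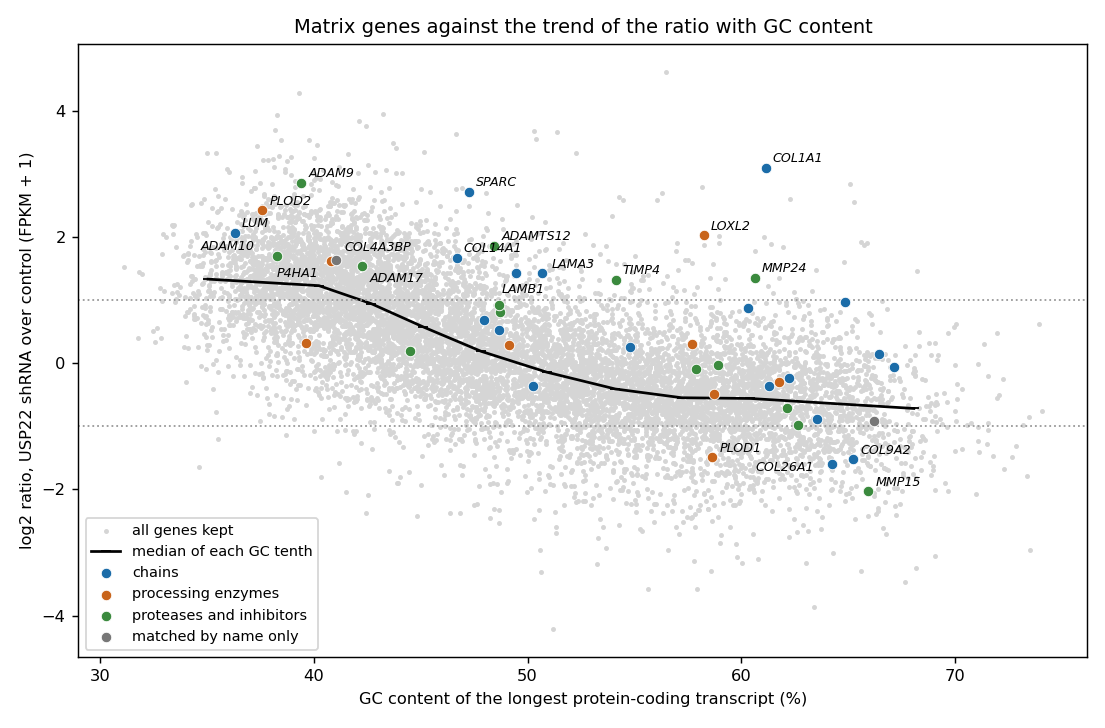
Log2 ratio of FPKM + 1 (USP22 shRNA over control, vertical axis) against transcript GC content in percent (horizontal axis) for all genes kept (grey) and for the matrix genes (coloured by role). The black line joins the medians of the 10 GC groups and the dotted lines mark 2-fold. COL1A1, LOXL2 and MMP24 lie well above the line at high GC content, whereas LUM, ADAM10, P4HA1 and ADAM17 lie at low GC content, where the medians of the GC groups run from 0.95 to 1.34.

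Among the fibrillar collagens, COL1A1, the alpha-1 chain of type I collagen (ENSG00000108821.13_3), was at 11.1 FPKM in control cells and 104 FPKM after USP22 knockdown, 9.30-fold higher. Its log2 ratio of 3.11 was at rank 33 from the highest of 10195 genes, and was 3.72 net of the GC trend. At a GC content of 61.1% it belongs to a GC group (of 10 equal ones) in which 1.48% were called higher and 25.6% lower. COL1A2 (ENSG00000164692.17_2), the alpha-2 chain that joins a pair of alpha-1 chains in the usual type I trimer, was at 11.2 FPKM in control cells and 13.7 FPKM after USP22 knockdown. The ratio of the COL1A1 to the COL1A2 level was therefore 0.993 in control cells and 7.59 after USP22 knockdown, a quantity that scaling between libraries does not move. COL1A1 made up 7.41% of the summed FPKM of the 16 collagen chains in the control and 37.2% after USP22 knockdown. Without COL1A1 that sum was 139 and 175 FPKM, and with it 150 and 278 FPKM.

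COL5A2, a type V chain that co-assembles with type I fibrils, had the highest collagen level in the control, at 51.8 FPKM, and was at 84.3 FPKM after USP22 knockdown, inside 2-fold. COL3A1, the type III chain usually found with type I collagen in fibrotic tissue, stood at 0.508 and 0.756 FPKM, below the filter. The fibrillar chains COL27A1, at 4.16 and 3.04 FPKM, and COL2A1, at 3.04 and 2.45 FPKM, were inside 2-fold. Thus COL1A1 was the fibrillar chain past 2-fold among the 6 listed, COL1A1, COL1A2, COL2A1, COL3A1, COL5A2 and COL27A1.

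Collagens that do not form fibrils differed among themselves. COL14A1, which binds the surface of fibrils, was at 8.45 FPKM in control cells and 29.2 FPKM after USP22 knockdown, giving a log2 ratio of 1.67, or 1.30 net of the GC trend. COL7A1, which forms the anchoring fibrils of epithelia, was at 0.843 and 2.63 FPKM, a ratio of 0.98 that became 1.70. COL18A1, a basement membrane collagen from which endostatin is cut, was at 28.3 and 27.1 FPKM and had a ratio of -0.06, against 0.73 with the trend removed. On the lower side were COL26A1, at 15.2 and 4.36 FPKM, and COL9A2, a fibril-associated chain best known from cartilage, at 9.70 and 2.74 FPKM. Their log2 ratios of -1.60 and -1.52 became -0.90 and -0.79, inside 2-fold, and in their GC group 34.8% of all genes were called lower. COL6A1, a chain of beaded microfibrils, was at 4.64 and 2.07 FPKM, inside 2-fold.

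The laminin chains listed had positive ratios wherever they reached the filter. LAMB1 (ENSG00000091136.13_2) was at 22.0 FPKM in control cells and 61.4 FPKM after USP22 knockdown, giving a log2 ratio of 1.44, or 1.41 net of the GC trend. The other beta chain, LAMB2, was at 14.3 and 27.2 FPKM, a ratio of 0.88 that became 1.48. Thus LAMB1 passed 2-fold either way, and LAMB2 once the trend was removed. LAMC1, the common gamma chain, was at 26.4 and 38.5 FPKM, and LAMA5, the most abundant alpha chain, at 27.5 and 30.7 FPKM. The LAMA5 ratio of 0.15 was -0.08 with TMM scaling and 0.92 net of the GC trend. LAMA3, an epithelial alpha chain, was at 0.706 and 3.59 FPKM, a ratio of 1.43 that became 1.52. Summed by type, alpha chains were at 28.4 and 34.9 FPKM and beta chains at 36.3 and 88.6 FPKM. The ratio of summed beta chains to LAMC1 was 1.37 in control cells and 2.3 after USP22 knockdown.

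Of the matrix proteins that are neither collagen nor laminin, fibronectin (FN1), a cell-adhesive glycoprotein made in quantity by hepatocytes, had the highest level of all 58 genes. It was at 352 FPKM in control cells and 275 FPKM after USP22 knockdown, with a log2 ratio of -0.36, or -0.31 net of the GC trend. SPARC, a secreted collagen-binding glycoprotein, was at 9.31 and 67.0 FPKM, 7.19-fold higher, at rank 78 from the highest. Its log2 ratio of 2.72 was 2.43 net of the GC trend. LUM, a small proteoglycan that binds collagen fibrils, was at 1.37 and 8.95 FPKM. Its ratio of 2.07 became 0.72, and LUM lies in the lowest of the 10 GC groups, in which 70.2% of genes were called higher.

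**Figure D3:**
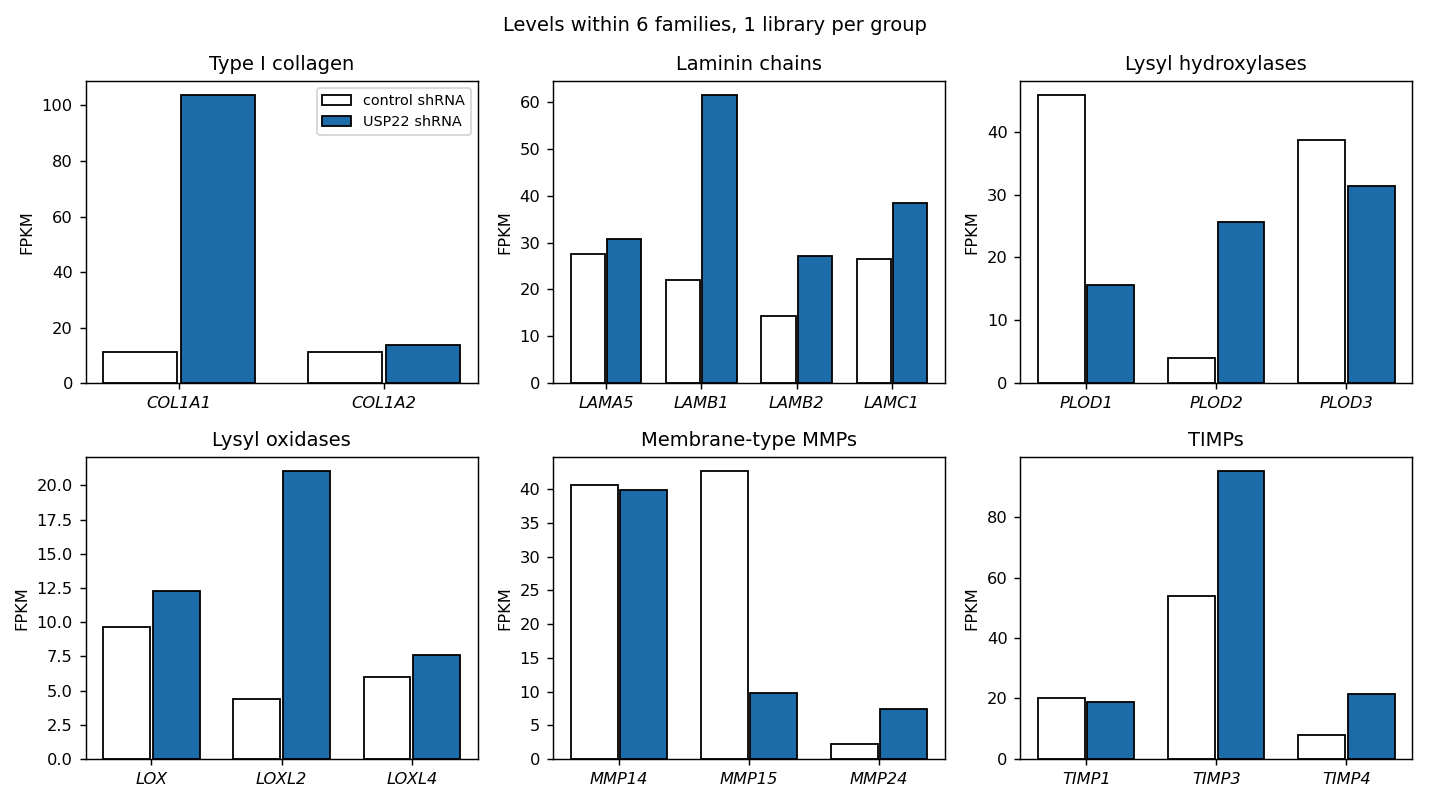
FPKM of named members of 6 families in the control (white bars) and the USP22 shRNA library (blue bars), 1 library each, with axes from 0. COL1A1 stands apart from COL1A2, and PLOD1 and PLOD2, like MMP15 and TIMP4, differ in opposite directions.

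Lysyl hydroxylases, which modify collagen lysines ahead of cross-linking, differed in both directions. PLOD2 (ENSG00000152952.11_2), the enzyme that acts on the ends of the collagen chain, was at 3.95 FPKM in control cells and 25.6 FPKM after USP22 knockdown. Its log2 ratio of 2.43 was 1.11 net of the GC trend. PLOD1 (ENSG00000083444.16_2), which acts on the helical part, was at 45.8 and 15.6 FPKM, a ratio of -1.49 that became -0.93, inside 2-fold. PLOD3, which also transfers sugars to hydroxylysine, was at 38.6 and 31.3 FPKM. The summed level of the 3 genes was 88.3 FPKM in control cells and 72.6 FPKM after USP22 knockdown, while the share of PLOD2 was 4.48% and 35.3% and that of PLOD1 51.8% and 21.5%. The level of PLOD2 over that of PLOD1 was 0.0864 in control cells and 1.64 after USP22 knockdown. These shares and this ratio are as deposited, without removal of the GC trend. PLOD2 has a GC content of 37.6% and PLOD1 of 58.6%, so the trend widens the difference between them.

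The stretches upstream of the annotated starts of this pair, which differed most among the lysyl hydroxylases, are shown from RefSeq on GRCh38.p14, 5′ to 3′ on the strand of the gene, without bases that lie in an annotated exon. Positions count back from the start, with -1 the base before it, and PLOD1 is shown from -250 to -24 (chr1:11934467-11934693, plus strand) and PLOD2 from -250 to -1 (chr3:146161185-146161434, minus strand). Capitals mark matches on either strand to the motif TATAA, then to CCAAT, further to GGGCGG, or lastly to ACGTG, which do not overlap in these stretches.
PLOD1: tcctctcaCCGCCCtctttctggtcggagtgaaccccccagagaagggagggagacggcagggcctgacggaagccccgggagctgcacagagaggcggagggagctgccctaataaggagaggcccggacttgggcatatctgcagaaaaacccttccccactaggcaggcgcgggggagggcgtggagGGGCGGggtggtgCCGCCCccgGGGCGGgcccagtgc
PLOD2: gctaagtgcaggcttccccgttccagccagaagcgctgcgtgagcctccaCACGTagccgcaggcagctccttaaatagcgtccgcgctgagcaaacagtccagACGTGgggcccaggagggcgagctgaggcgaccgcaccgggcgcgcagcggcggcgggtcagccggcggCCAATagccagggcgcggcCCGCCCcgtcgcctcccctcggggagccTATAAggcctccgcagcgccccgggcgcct

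In PLOD2 a TATAA match began at position -30 and a CCAAT match at -77, and ACGTG, the core letters of the site bound by hypoxia-inducible factors, matched at -200 on the opposite strand and at -146 on the strand of the gene. GGGCGG matched once in PLOD2, from -58 on the opposite strand, and 4 times in PLOD1, where the other motifs had no match in the stretch shown. Over the 250 bases before the start, TATAA was found in 8 of the 40 matrix genes with a RefSeq stretch (20%) and in 13.9% of 8029 genes kept that had one. For ACGTG the shares were 25% and 29.7%, for CCAAT 27.5% and 41.9%, and for GGGCGG 82.5% and 76.9%. The 40 matrix genes were taken whether or not they reached a mean of 1 FPKM, unlike the 8029, so the shares are of unlike sets. A match is a match of letters, and no binding was measured.

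Of the other processing enzymes, P4HA1, a catalytic subunit of the prolyl hydroxylase that stabilises the collagen helix, was at 10.4 FPKM in control cells and 34.3 FPKM after USP22 knockdown. Its ratio of 1.63 became 0.49 net of the GC trend. P4HA2, the alternative subunit, was at 8.35 and 10.4 FPKM. SERPINH1, the chaperone that accompanies procollagen to the Golgi, was at 25.1 and 17.7 FPKM, a ratio of -0.49 that became 0.08.

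LOXL2 (ENSG00000134013.15_3), a lysyl oxidase that cross-links collagen, was at 4.40 FPKM in control cells and 21.1 FPKM after USP22 knockdown. Its log2 ratio of 2.03 was 2.58 net of the GC trend, and in its GC group 2.27% of all genes were called higher. LOX itself was at 9.63 and 12.3 FPKM, a ratio of 0.32 that turned to -0.91 once the trend was removed. LOXL4 was at 5.96 and 7.63 FPKM and LOXL3 at 0.640 and 0.232 FPKM. Over these 4 genes LOXL2 held 21.3% of the summed level in the control and 51.1% after USP22 knockdown, and LOX held 46.7% and 29.8%.

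Membrane-type MMPs are anchored at the cell surface, and 5 of them were listed. MMP14, which activates the gelatinase pro-MMP2, was at 40.6 FPKM in control cells and 40.0 FPKM after USP22 knockdown. MMP15 (ENSG00000102996.4_2), at a like level in the control, was at 42.7 and 9.74 FPKM, 4.39-fold lower. Its log2 ratio of -2.03, at rank 163 from the lowest, was -1.27 net of the GC trend. MMP14 and MMP15 thus stood at 0.950 to 1 in control cells and 4.11 to 1 after USP22 knockdown. MMP24 was at 2.27 and 7.39 FPKM, a ratio of 1.36 that became 1.96. The transcript opposite to it, MMP24-AS1, was at 6.50 and 2.96 FPKM, and since the sources used here do not say whether strand was used in quantification, reads over their shared exons cannot be told apart. MMP11, a secreted stromelysin, was at 2.04 and 0.863 FPKM.

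TIMP3, which is held in the matrix and inhibits ADAM17 as well as MMPs, had the highest level among the 20 proteases and inhibitors, at 53.9 FPKM in control cells and 95.2 FPKM after USP22 knockdown, inside 2-fold. TIMP4 was at 8.03 and 21.6 FPKM, giving a log2 ratio of 1.32, or 1.71 net of the GC trend. TIMP1 was at 19.99 and 18.8 FPKM. The summed level of the 3 TIMPs was 82.0 FPKM in control cells and 136 FPKM after USP22 knockdown, and that of the 7 MMPs was 89.7 and 59.9 FPKM. Summed TIMP over summed MMP mRNA was therefore 0.914 in control cells and 2.26 after USP22 knockdown, which is a ratio of transcripts and not of protein or activity. MMP15 carried the lower MMP sum, and TIMP3, inside 2-fold, most of the higher TIMP sum. The sums are as deposited, without removal of the GC trend. Median GC content was 61.4% over the 4 MMPs that reached the filter and 54.1% over the 3 TIMPs.

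The ADAM family includes sheddases, which release the outer parts of membrane proteins. Of the 5 ADAM genes that reached the filter, 3 (60%) were called higher, against 24.1% of all genes kept. In the GC groups of ADAM9, ADAM10 and ADAM17, 62.0%, 70.2% and 47.3% of all genes were called higher. Net of the GC trend 1 of the 5 (20%) was higher, against 8.45% of all genes. ADAM9 (ENSG00000168615.11_2) was at 4.68 FPKM in control cells and 40.4 FPKM after USP22 knockdown, 8.62-fold higher, giving a log2 ratio of 2.86, or 1.62 net of the GC trend. ADAM10, known for Notch and amyloid precursor cleavage, was at 1.42 and 6.88 FPKM, and ADAM17, which releases TNF, at 3.92 and 13.3 FPKM. Their ratios of 1.71 and 1.54 became 0.41 and 0.55, so ADAM9 kept its call and ADAM10 and ADAM17 did not. ADAM15 was at 8.51 and 3.85 FPKM, a ratio of -0.97 just inside 2-fold, and ADAM23, which lacks a catalytic site, at 3.01 and 3.63 FPKM.

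Of the secreted ADAMTS proteases, ADAMTS12 was at 0.829 FPKM in control cells and 5.68 FPKM after USP22 knockdown. Its log2 ratio was 1.87, and 1.72 net of the GC trend. ADAMTS1, which cuts the proteoglycans aggrecan and versican, was at 2.46 and 5.56 FPKM, a ratio of 0.92. ADAMTS3, a protease that trims procollagen, stood at 0.250 and 0.614 FPKM, under the filter.

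**Figure D4:**
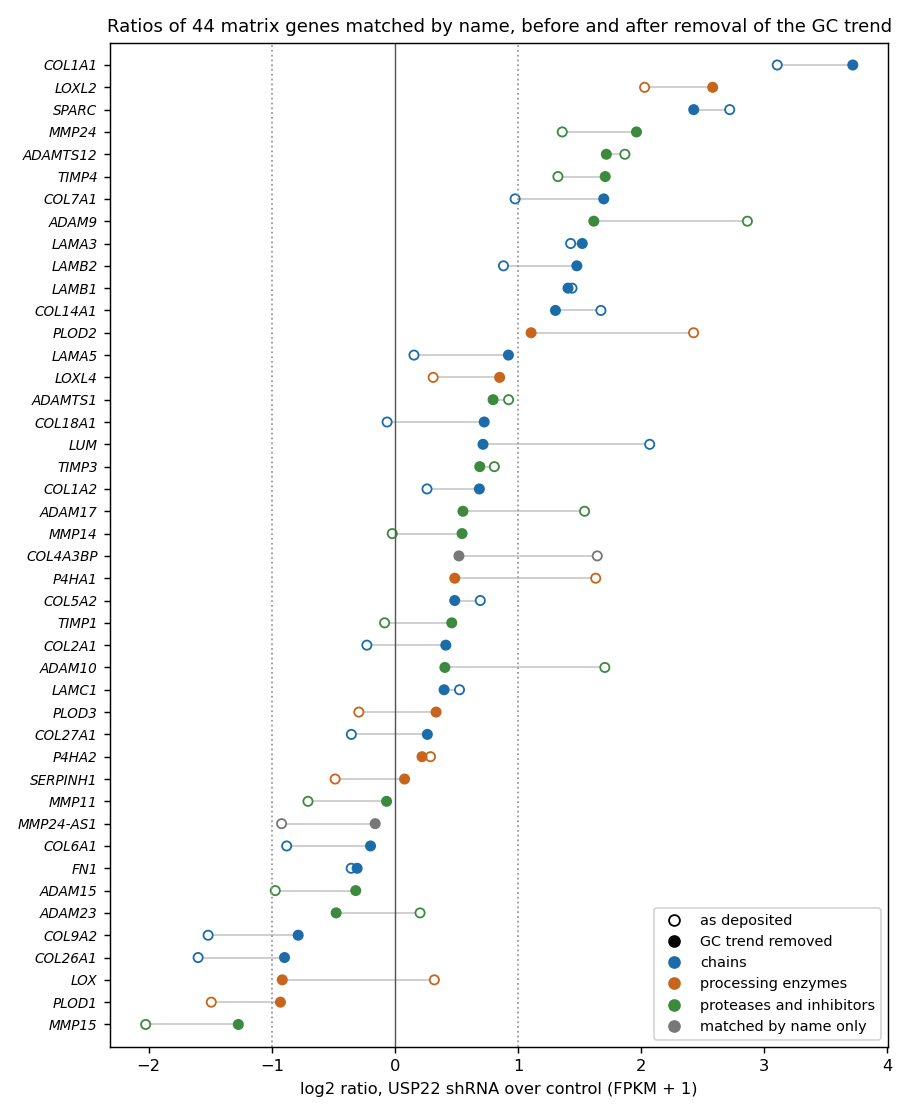
Log2 ratios of FPKM + 1 (USP22 shRNA over control) of the 44 genes that reached a mean of 1 FPKM, as deposited (open circles) and net of the GC trend (filled circles), coloured by role. The dotted lines mark 2-fold. COL1A1, LOXL2 and SPARC are highest with the trend removed, MMP15 is lowest, and LOX is among several genes that change sign.

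Exons of 19 of the 44 genes overlap exons of another annotated gene, so their values may hold reads of that gene. Among the 20 genes past 2-fold these were LAMB1, SPARC, COL4A3BP, P4HA1, MMP24, LOXL2, ADAM10, ADAM17 and TIMP4. Among the 25 genes with no such overlap 7 (28%) were higher and 4 (16%) lower, near the 26.8% and 12% of the 5085 genes kept that have none. Their median log2 ratio was 0.26, against 0.20 over those genes. These shares and medians are as deposited, and none was found for genes without overlap net of the GC trend.

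Matrix genes that the name rule does not take were described from a list of 47, of which 38 were listed and 32 reached the filter. Of these, 7 (21.9%) were at least 2-fold higher and 4 (12.5%) lower, near the 24.1% and 12.2% of all genes, with a median log2 ratio of -0.15. Net of the GC trend 4 (12.5%) were higher, against 8.45% of all genes, and 1 lower, against 8.92%, at a median of 0.15. FKBP14 and VCAN, called higher as deposited, reached the filter while under 1 FPKM in the control. TMPRSS6, called lower, reached it while under 1 FPKM after USP22 knockdown. No count at 1 FPKM in both libraries was made for this list. Among collagen-modifying proteins, P3H2, a prolyl 3-hydroxylase, was at 4.46 FPKM in control cells and 12.8 FPKM after USP22 knockdown, and the prolyl isomerase FKBP14 at 0.838 and 3.89 FPKM. FKBP10, a collagen chaperone whose loss causes brittle bone disease, was at 21.6 and 7.79 FPKM, and P3H4 at 8.51 and 2.47 FPKM. The most abundant of this subgroup, the isomerase PPIB, at 419 and 240 FPKM, and P4HB, the partner subunit of prolyl 4-hydroxylase, at 166 and 106 FPKM, were inside 2-fold. With the trend removed P3H2 (1.47) was past 2-fold, and FKBP14 (0.13), FKBP10 (-0.78) and P3H4 (-0.82) were not.

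In procollagen export, MIA3, which loads collagen at endoplasmic reticulum exit sites, was at 1.61 and 5.21 FPKM and the coat subunit SEC23A at 9.06 and 25.3 FPKM, and both came near 0 with the trend removed (0.13 and 0.06). PCOLCE, which enhances procollagen trimming, was at 10.3 and 6.73 FPKM and its relative PCOLCE2 at 9.12 and 10.8 FPKM. BMP1, the procollagen C-proteinase, named after its values were seen, was at 4.48 and 9.29 FPKM, a ratio of 0.91 that became 1.56. Of the glycoproteins, THBS1, a matricellular protein, was at 7.15 and 24.3 FPKM and the proteoglycan VCAN at 0.485 and 2.53 FPKM, with ratios of 1.12 and 0.34 once the trend was removed. The abundant glycoproteins VTN, at 225 and 113 FPKM, and FBLN1, at 98.2 and 56.8 FPKM, were inside 2-fold. The laminin-binding partners NID1, at 70.1 and 46.6 FPKM, and AGRN, at 70.8 and 50.5 FPKM, were inside 2-fold. Among pericellular proteases, the cathepsin CTSL was at 30.1 and 89.4 FPKM and past 2-fold either way (1.54 and 1.80). The cathepsin CTSB, at 44.6 and 67.8 FPKM, was inside 2-fold. The MMP inducer BSG was at 155 and 62.0 FPKM, a ratio of -1.31 that became -0.65, and the hepatocyte protease TMPRSS6 was at 4.98 and 0.749 FPKM, lower either way (-1.77 and -1.11).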

How the data were processed

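RNA-seq of Huh7 cells was compared between 1 control shRNA and 1 USP22 shRNA library, grouped by the labels. Per the labels' protocols, RNA extracted with TRIZOL went into an mRNA library kit. Build GRCh37 and the tools StringTie 1.3.0 and HISAT2 2.0.4 are named, without roles, per the submitters' processing notes. Each deposited table gives 1 value per gene, read as FPKM, an assumption, and how its genes were chosen is not stated in the sources used here.

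From the deposited FPKM, log2 ratios used a pseudocount of 1, which understates low genes, a mean of at least 1 FPKM and a 2-fold rule of size, with no test. Over 4000 candidate step sizes, low values times transcript length reached a step strength of 0.0495 (control) and 0.0797 (USP22 shRNA), where 1 means whole multiples, so no read counts were recovered. Depth is unknown and no interval is given. GC content came from the longest protein-coding transcript in GENCODE 29 (GRCh38), matched by Ensembl identifier for 98.8% of genes. Its trend was removed by lowess over a 30% span (statsmodels 0.14.6, Python 3.11.15). The step was tested on simulated data with a straight GC trend and small noise, with changes placed in well-expressed genes. That setting does not cover the curved trend of these libraries or genes near the filter. Ratios with the trend removed are centred near 0 at each GC content. Sums, shares and ratios of levels between genes were left as deposited. Exon overlaps used the same annotation. The members, lists, alternatives and naming rule (members, plus other matrix genes past 2-fold and abundant ones, a few not being reported here) were chosen with earlier results of these data known.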

Additional observations from a re-analysis of the deposited data

How the results depend on the processing

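No paired analysis was possible because each group has 1 library. None of the called ratios changed sign under the 13 alternatives, of which 3 (leaving out the name-only matches, the genes with overlapping exons, or genes under 1 FPKM in either library) were chosen after seeing the data. Alternatives that change only the filter, the size rule or the genes taken leave each ratio as it is. They could therefore neither change a sign nor bring a called gene inside 2-fold. Of the 20 genes past 2-fold, 9 stayed so in each alternative at a 2-fold rule that kept them, 8 higher (COL1A1, SPARC, COL14A1, LAMB1, LOXL2, PLOD2, TIMP4 and ADAM9) and MMP15 lower. Of these, SPARC, LAMB1, LOXL2 and TIMP4 have overlapping exons and were not kept in the alternative that leaves such genes out. By role, 6 of 19 chains (31.6%) were higher and 2 (10.5%) lower, against 24.1% and 12.2% of all genes. For processing enzymes this was 3 (33.3%) and 1 (11.1%) of 9, and for proteases and inhibitors 6 (42.9%) and 1 (7.14%) of 14. Moves of a count by role of up to 1.5-fold are not listed. The count of higher genes, 16, was 11 to 21 under the other alternatives and 7 without genes with overlapping exons. There processing enzymes gave 1, proteases 2 and the median was 0.26. Shares of all genes were found for TMM, the GC trend, exon overlap and 1 FPKM in both libraries, as given above, and for no other alternative. The count of lower genes, 4, was 8 with a pseudocount of 0.1 or a 1.5-fold rule (proteases 3 in each), 7 with TMM (proteases 2), and 1 with the GC trend, or GC and length trends, removed (chains 0, processing enzymes 0). Centring on the median gave 6 lower genes (proteases 2). A pseudocount of 5 gave 3 lower genes (chains 1) and 3 higher proteases, and a mean of at least 5 FPKM also gave 3 higher proteases. The median of 0.42 was 0.31 with a pseudocount of 5, 0.19 with TMM, 0.53 without the GC trend, 0.54 without GC and length trends, 0.32 at a mean of 5 FPKM and 0.31 at 1 FPKM in both libraries. It was 0.32 when centred on the median, 0.33 with no filter, 0.45 with a pseudocount of 0.1 and 0.46 when rescaled without mitochondrial genes. For counts that move with a threshold or with the genes taken, fewer or more genes counted is the construction of the alternative, and otherwise the cause was not tested. Unknown depth limits the low genes most.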
